A study of Mus musculus with 12 samples.

Results

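The 10 genes described here are the neurofilament genes Nefl, Nefm and Nefh, the related neuronal filament genes Ina and Prph, the axonal growth genes Gap43 and Stmn2, and the RGC genes Sncg, Rbpms and Slc17a6. They were taken by name from the 38720 genes of each expression table, and all 10 were found in both tables and passed the filter on low values. RNA had been sequenced from P0 retina of mKO mice (Math5-Cre with both Ezh2 alleles floxed) and of wild type (WT) mice, labelled as strain C57/BL6. Retinal ganglion cells (RGCs) were caught with magnetic beads carrying an antibody to CD90 (Thy-1), and the cells left behind are called non-RGCs, with 3 libraries for each genotype and fraction and 12 libraries in all. No group received a treatment. Cre was knocked in under Math5 (Atoh7), a gene of RGC precursors, and WT mice carry neither Cre nor floxed alleles by their label. As the study describes, Cre is active in only some RGCs and in some other retinal cells, so the mKO fractions mix cells with and without the deletion.

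Neurofilaments are rope-like polymers that fill large axons and set their calibre. The light subunit Nefl co-assembles with the medium and heavy subunits Nefm and Nefh, and alpha-internexin (Ina) joins them in central neurons, where it is made early in development. Peripherin (Prph) belongs mainly to neurons with axons in the periphery. RGCs are the neurons whose axons form the optic nerve, and at birth these axons are still growing into their targets. Gap43 is a membrane-bound protein of growth cones, and Stmn2 (SCG10) binds tubulin and acts on microtubule turnover there. Gamma-synuclein (Sncg) and the RNA-binding protein Rbpms are widely used to mark RGCs, and Slc17a6 encodes VGLUT2, the transporter that loads glutamate into synaptic vesicles.

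In GENCODE M21 (GRCm38) Nefl lies on chromosome 14 from 68083863 to 68089095 on the plus strand, and Nefm from 68082590 to 68124846 on the minus strand. The annotated exons of these neighbours share 1108 bases on opposite strands, which is 32.8% of the exon bases of Nefl and 19.2% of those of Nefm. Ina, on chromosome 19 from 47014698 to 47025327, shares 456 exon bases with Nt5c2 on the other strand, or 14.1% of its exon bases. Whether the counting used strand is not given in the sources used here, so reads from these shared bases cannot be told apart. Sncg also lies on chromosome 14, from 34370274 to 34374789. The other members lie on chromosomes 3, 7, 8, 11, 15 and 16.

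The promoters of members that moved together in RGCs (Ina, Sncg) are shown beside those of members that did not pass the test there (Prph, Slc17a6). RefSeq windows for GRCm38.p6 matched 4 of the 10 members. The bases before the RefSeq transcript start are printed 5′ to 3′ on the strand of the gene. Bases inside the gene as GENCODE M21 annotates it were left out. This shortened the Sncg window to 130 bases, without those nearest its RefSeq start. Capitals mark a TATA box (TATAAA), an E-box (CAGCTG) or a GC box (GGGCGG), each searched on both strands, and CCAAT was searched as well.
Ina, chr19:47014431-47014680, plus strand: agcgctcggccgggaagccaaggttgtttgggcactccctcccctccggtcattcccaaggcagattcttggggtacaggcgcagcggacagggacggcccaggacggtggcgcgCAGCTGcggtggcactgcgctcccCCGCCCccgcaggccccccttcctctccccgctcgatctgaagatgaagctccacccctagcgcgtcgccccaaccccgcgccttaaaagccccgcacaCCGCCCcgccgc
Sncg, chr14:34374790-34374919, minus strand: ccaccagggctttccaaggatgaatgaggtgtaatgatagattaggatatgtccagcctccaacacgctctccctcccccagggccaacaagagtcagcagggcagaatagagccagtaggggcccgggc
Prph, chr15:99054924-99055173, plus strand: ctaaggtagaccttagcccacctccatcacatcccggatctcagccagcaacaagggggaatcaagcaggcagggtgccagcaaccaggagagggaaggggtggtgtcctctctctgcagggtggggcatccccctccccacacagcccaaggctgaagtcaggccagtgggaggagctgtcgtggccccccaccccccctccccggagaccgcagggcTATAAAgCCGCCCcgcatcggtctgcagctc
Slc17a6, chr7:51621580-51621829, plus strand: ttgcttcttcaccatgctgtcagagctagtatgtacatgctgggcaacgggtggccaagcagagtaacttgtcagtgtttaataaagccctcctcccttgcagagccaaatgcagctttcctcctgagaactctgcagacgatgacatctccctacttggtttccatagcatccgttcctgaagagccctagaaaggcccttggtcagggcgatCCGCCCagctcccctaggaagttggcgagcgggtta
The Ina window had 25 CpG dinucleotides and a GC content of 70.8%, against medians of 6 and 52.4% over 32851 windows of 250 bases. It held 1 E-box and 2 GC boxes. The Prph window held a TATA box next to a GC box, and the Slc17a6 window held 1 GC box. None of the 4 motifs was found in the 130 bases of the shortened Sncg window, which had 2 CpG dinucleotides. The bases left out were not searched, so this window cannot be set beside windows of 250 bases. Of all windows of 250 bases, 12.4% held the TATA box, 13.0% the E-box, 32.7% the GC box and 33.8% CCAAT.

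The deposited tables give gene counts divided by a size factor and averaged over 3 libraries. Whole reads per library were recovered from the digits of these means, and libraries are given the letters A, B and C by falling depth within a group. Reads on genes came to between 7139633 and 13014004 per library. Ezh2 itself had 1354, 1476 and 1443 normalized reads in mKO RGCs against 1189.9, 1206 and 1678 in WT RGCs, so the groups overlapped and its level did not separate the genotypes. Counts cover the whole gene, while the floxed exons encode only the SET domain, so this is a weak check of the labels. Thy1, the target of the beads, had 178 to 199 reads per 1000000 reads on genes (RPM) in WT RGCs and 122 to 125 in mKO RGCs. All 12 RGC markers, and also 5 of 5 microglia markers, were higher in the RGC fraction in both genotypes (limma). WT RGC library C stood apart, with 2005 RPM on 10 progenitor markers against 1196 and 1249 in libraries A and B. Haemoglobin and Alas2 reads were also higher in mKO libraries, with 24.3 to 30.2 against 9.34 to 11.04 RPM over 5 blood markers in RGCs. Whether the libraries came from separate animals is not stated beyond independent RNA extractions, so p-values measure the spread between these samples.

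Per length, WT RGCs held most RNA of Sncg, Gap43 and Ina among the 10 genes. On the scale of RPM per kilobase of exon (RPKM), Sncg was at 125 ± 5.60, Gap43 at 121 ± 4.80 and Ina at 119 ± 2.19 (mean ± SD, n = 3). These 3 levels overlapped between libraries. Nefl followed at 77.5 ± 2.20, Nefm at 64.6 ± 2.47 and Stmn2 at 47.0 ± 1.21. Rbpms at 39.7 ± 2.38 and Slc17a6 at 37.6 ± 6.77 could not be put in order, because their libraries overlapped. Nefh was far lower at 10.9 ± 3.04 and Prph lowest at 2.54 ± 2.299. Taking the longest transcript in place of all annotated exons raised Nefm to 102, Rbpms to 102 and Stmn2 to 77.2 RPKM, so the order among these genes rests on the length used. In WT non-RGCs, Ina led at 51.2 ± 7.36, ahead of Gap43 at 31.3 ± 1.43 and Stmn2 at 18.0 ± 2.25. Slc17a6 was lowest there at 0.822 ± 0.114.

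**Figure D1:**
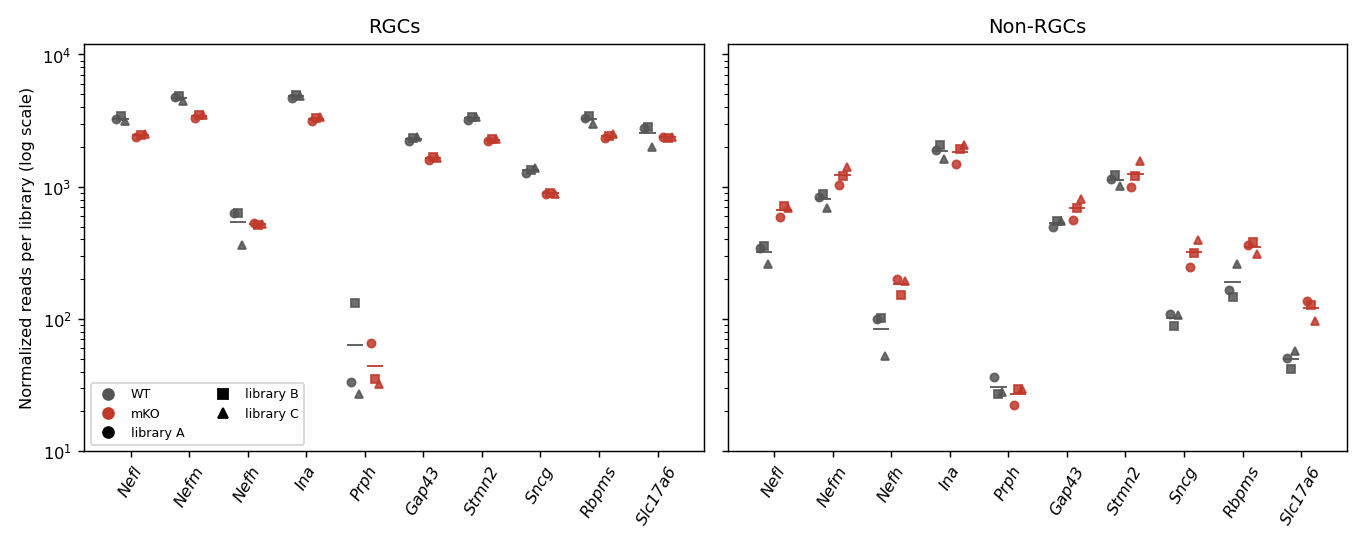
Normalized reads (log axis) of the 10 genes in each library, with WT in grey, mKO in red, a marker shape per library and a short line at the group mean; RGCs are on the left and non-RGCs on the right. In RGCs 7 genes lie wholly below WT in mKO, as do 28.2% of all genes. In non-RGCs 7 genes lie wholly above WT in mKO, as do 17.5% of all genes.

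How far each gene separated RGCs from non-RGCs was asked in each genotype, after scaling the whole reads of all 12 libraries together. In WT retina 9 of the 10 genes were higher in RGCs (limma, Benjamini-Hochberg adjusted p under 0.05), against 26.4% of the 16502 genes tested, and 22.6% were lower. Slc17a6 separated the fractions most. Its scaled reads averaged 2475 in WT RGCs and 50.9 in WT non-RGCs, a log2 difference of 5.56 ± 0.18 (SE, adjusted p = 3.49e-10). Rbpms followed with a log2 difference of 4.05 ± 0.18, Sncg with 3.63 ± 0.15 and Nefl with 3.29 ± 0.12. Differences were smaller for Nefh (2.61 ± 0.27), Nefm (2.47 ± 0.11) and Gap43 (2.04 ± 0.11). Stmn2 at 1.47 ± 0.13 and Ina at 1.31 ± 0.11 differed least among the genes that passed, and non-RGCs kept 40.5% of the RGC level of Ina. Prph did not pass, at 0.61 ± 0.49 (adjusted p = 0.324), and without WT RGC library B its difference was -0.098. The libraries of the fractions did not overlap for 9 genes in WT, where 29.5% of all genes lay wholly higher in RGCs.

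In mKO retina the same 9 genes were higher in RGCs, against 29.1% of all genes higher and 25.4% lower. Scaling by total reads gave 4231 higher and 5663 lower genes in mKO in place of 4806 and 4193, and left the members' count at 9. All 10 genes lay wholly higher in RGCs, as did 33.8% of all genes. Each difference was smaller in value than in WT. Slc17a6 differed by 4.22 ± 0.18 on the log2 scale, Rbpms by 2.71 ± 0.18, Nefl by 1.81 ± 0.12 and Sncg by 1.42 ± 0.15. The non-RGC mean of Sncg was 8.07% of the RGC mean in WT and 38.0% in mKO. For Nefl these shares were 10.3% and 28.6%, for Rbpms 6.17% and 15.3%, and for Slc17a6 2.06% and 5.39%. For Ina, whose share was the largest in WT apart from Prph, they were 40.5% and 58.5%. The RGC and non-RGC libraries may come from the same animals, which the fit could not use.

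**Figure D2:**
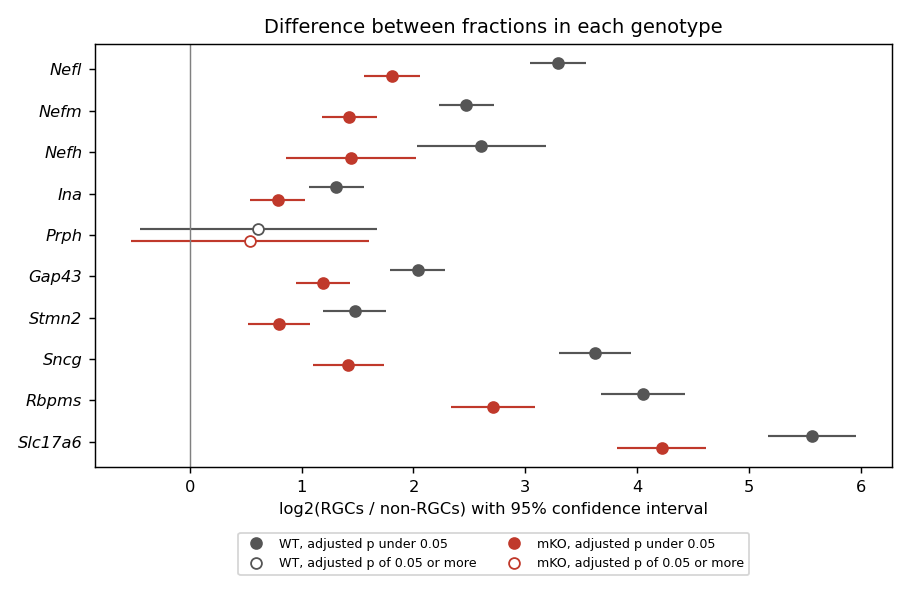
Log2 difference between RGCs and non-RGCs for each gene in WT (grey) and mKO (red), with 95% confidence intervals from the fit over 12 libraries; filled points passed an adjusted p of 0.05. Every gene except Prph is filled in both genotypes, and each mKO point lies left of its WT point, from Slc17a6 at 5.56 and 4.22 down to Ina at 1.31 and 0.78.

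Next, mKO and WT RGCs were compared. Of the 10 genes, 7 were lower in mKO RGCs and 0 were higher, while among all 16085 genes tested 21.2% were lower and 16.3% higher. By an unadjusted p under 0.05, or with limma-voom, the count of higher members was also 0. The median log2 difference of the members was -0.44 and that of all genes -0.0024. Libraries did not overlap for 7 genes, all lower in mKO, as 28.2% of all genes lay wholly lower and 24.8% wholly higher. Scaling by total reads raised the median of all genes to 0.12, with 3857 genes higher and 2238 lower in place of 2622 and 3405, and the members' median became -0.31 with the same count of 7. In bulk samples, fewer cells of a type and less RNA per cell cannot be told apart.

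Among the filament genes, Ina had 4721, 4908 and 4845 normalized reads in WT RGC libraries A, B and C and 3166, 3316 and 3339.7 in mKO RGCs. All mKO libraries were below all WT libraries, and Ina fell by 0.56 ± 0.05 on the log2 scale (SE, limma adjusted p = 0.000651). Nefl had 3263, 3414 and 3152 in WT against 2393, 2475 and 2501 in mKO. It fell by 0.41 ± 0.05 (limma adjusted p = 0.00152), again without overlap. Nefm had 4776, 4831 and 4418 in WT against 3310.4, 3495 and 3475 in mKO, a fall of 0.45 ± 0.06 (limma adjusted p = 0.00153). These 3 genes encode the subunits of highest level in RGCs, and their mKO means were 67.8% (Ina), 73.3% (Nefm) and 75.0% (Nefl) of WT.

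Nefh and Prph did not pass, and their libraries were less alike. Nefh had 630.4, 636 and 363 normalized reads in WT RGCs against 530.5, 517 and 521 in mKO. The mKO libraries were alike and lay between WT library C and the other two, so the log2 difference was -0.01 (95% interval -0.50 to 0.49, limma adjusted p = 0.979). Without WT RGC library C it was -0.28, with a limma adjusted p of 0.00331. Prph, the filament gene of lowest level, had 33.4, 131 and 26.8 in WT against 65.4, 35.0 and 32.0 in mKO. WT library B held most of its reads, the groups overlapped, and the interval of the log2 difference ran from -1.65 to 1.198 (limma adjusted p = 0.789).

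Both growth genes were lower in mKO RGCs. Gap43 had 2219, 2335 and 2377 normalized reads in WT RGCs against 1605, 1668 and 1638 in mKO. It fell by 0.50 ± 0.05 on the log2 scale (limma adjusted p = 0.000866), with no overlap of libraries. Stmn2 had 3207, 3339 and 3342 in WT and 2197, 2308 and 2279 in mKO, and fell by 0.54 ± 0.05 (limma adjusted p = 0.000657). Stmn2 has the lowest GC content of the 10 genes, 41.3% of the bases of its longest transcript.

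Of the RGC markers, Sncg fell most, by 0.58 ± 0.05 (limma adjusted p = 0.000693). Its libraries held 1275, 1332 and 1378 normalized reads in WT RGCs and 881, 901 and 884 in mKO. Rbpms had 3316, 3454 and 3004 in WT against 2329.7, 2434 and 2506 in mKO, a fall of 0.43 ± 0.07 (limma adjusted p = 0.00332), and all mKO libraries lay below WT. Slc17a6 had 2793, 2851 and 1992 in WT against 2376, 2346 and 2363 in mKO. Its mKO libraries lay between WT library C and the others, with a log2 difference of -0.09 (95% interval -0.40 to 0.23, limma adjusted p = 0.625). Without WT library C this difference was -0.26 (limma adjusted p = 0.000926), and the count of lower members rose from 7 to 9, while the share of all genes that were lower rose from 21.2% to 27.7%.

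**Figure D3:**
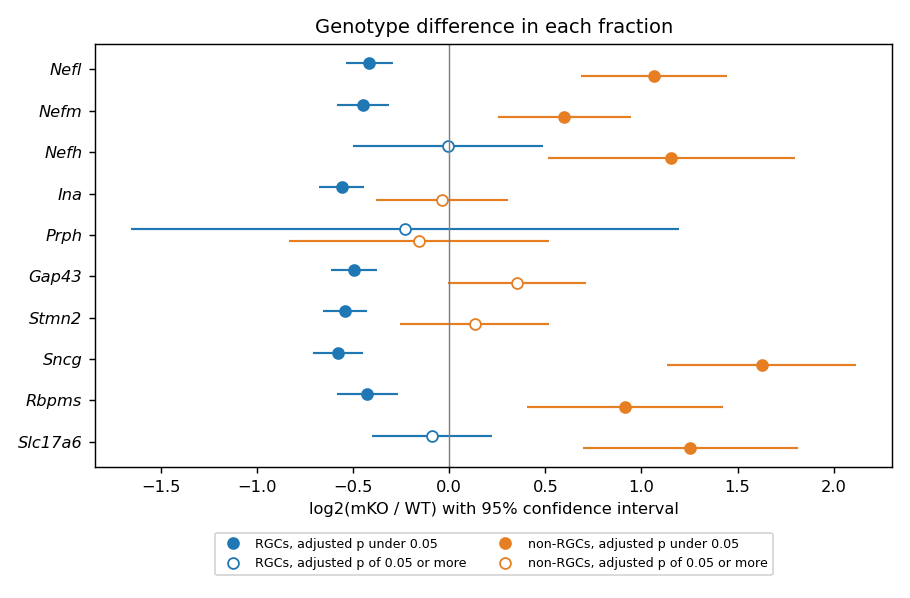
Log2 difference between mKO and WT for each gene in RGCs (blue) and non-RGCs (orange), with 95% confidence intervals; filled points passed an adjusted p of 0.05. In RGCs 7 filled points sit between -0.41 and -0.58, and in non-RGCs 6 filled points sit between 0.60 and 1.63. Of all genes, 21.2% were lower in mKO RGCs and 4.18% higher in mKO non-RGCs.

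The difference between genotypes in RGCs ran with base composition. GC content was taken over the longest transcript of each gene. Over 12239 genes whose mean was 50 or more, Spearman's rho between the log2 difference and this GC content was -0.71 in RGCs. Over 11693 genes in non-RGCs it was -0.51, as a description across genes that share the same libraries. With each library's GC trend removed, 6 of the 10 genes were lower in mKO RGCs, beside 9.65% of all genes, and Nefm was not, at -0.04 (limma adjusted p = 0.719). With the trends of both GC content and coverage (reads on each exon base) removed, only Stmn2 was lower, by 0.50 ± 0.04 (limma adjusted p = 0.00308), beside 5.54% of all genes. Gap43 was then at -0.16 (adjusted p = 0.0697), Nefl at -0.11, Ina at -0.07 and Sncg at -0.04, and Nefm at 0.14. Of the 10 genes, only Stmn2 passed the test in mKO RGCs under every processing tried. In non-RGCs, removing either the GC trend or both trends left 4 genes higher in mKO (Sncg, Nefl, Nefm and Nefh), beside 1.02% and 0.985% of all genes.

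**Figure D4:**
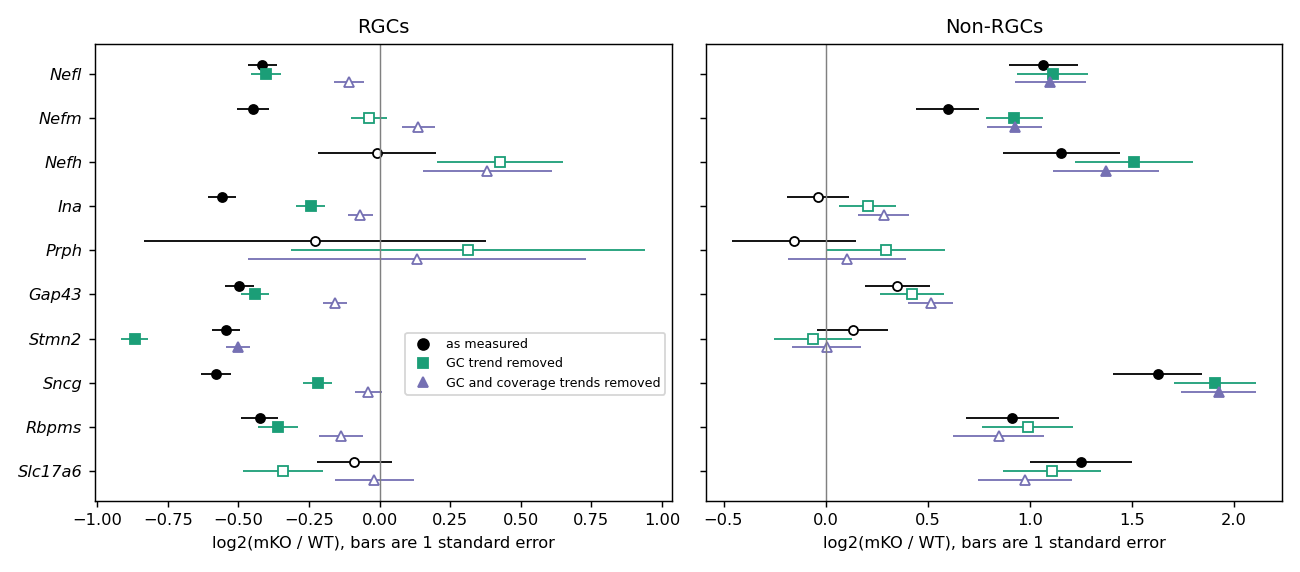
Log2 difference between mKO and WT in RGCs (left) and non-RGCs (right) as measured (black circles), with the GC trend removed (green squares) and with the GC and coverage trends removed (purple triangles); bars are 1 standard error and filled symbols passed an adjusted p of 0.05. In RGCs only Stmn2 is filled in all 3, while in non-RGCs Sncg, Nefl, Nefm and Nefh are.

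The same comparison was made in non-RGCs, where 6 of the 10 genes were higher in mKO and 0 lower, against 4.18% of 15326 genes higher and 6.43% lower. Of the 6, Nefl, Nefm, Sncg and Rbpms had passed in RGCs with the opposite sign. By an unadjusted p under 0.05, or with limma-voom, the count of lower members was also 0. The median log2 difference of the members was 0.76, and that of all genes -0.03. Libraries did not overlap for 7 genes, all higher in mKO, against 17.5% of all genes wholly higher and 19.2% wholly lower. Scaling by total reads raised the median of all genes to 0.15, with 1346 genes higher and 448 lower in place of 641 and 985.

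Sncg rose most. Its normalized reads were 108, 89.0 and 107 in WT non-RGC libraries A, B and C and 247, 316 and 398 in mKO. Every mKO library was above every WT library, by 1.63 ± 0.22 on the log2 scale (limma adjusted p = 0.00616). Slc17a6 had 50.5, 41.6 and 57.3 in WT against 137, 129 and 96.0 in mKO, a rise of 1.25 ± 0.25 (limma adjusted p = 0.0185). Rbpms had 166, 147 and 259 against 359.9, 384 and 309, a rise of 0.92 ± 0.23 (limma adjusted p = 0.0347). With the GC trend removed, Slc17a6 and Rbpms did not pass (limma adjusted p = 0.0554 and 0.0571), nor did they with both trends removed (0.0672 and 0.0814). WT library C was the highest of its group for both genes, and still lay below mKO.

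The neurofilament subunits rose as well. Nefl had 344, 354 and 261 normalized reads in WT non-RGCs against 588, 717 and 695 in mKO, a rise of 1.07 ± 0.17 (limma adjusted p = 0.00922). Nefh had 100.2, 102 and 52.1 against 202, 152.5 and 195, a rise of 1.16 ± 0.29 (limma adjusted p = 0.0343). Nefm had 833, 877 and 692 against 1036, 1199 and 1414, a rise of 0.60 ± 0.15 (limma adjusted p = 0.0395). None of these groups overlapped.

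The other members did not pass. Gap43 had 498, 551 and 552 in WT non-RGCs and 563, 691.5 and 809 in mKO, without overlap, and a log2 difference of 0.35 ± 0.16 (limma adjusted p = 0.176). Stmn2 had 1146, 1232 and 1006 against 990.2, 1207 and 1566, with a log2 difference of 0.13 (95% interval -0.26 to 0.52). Ina had 1882, 2063 and 1618 against 1473, 1923 and 2056, at -0.04 (-0.38 to 0.31), and Prph lay between 22.3 and 36.1 in all 6 libraries. The groups of Stmn2, Ina and Prph overlapped.

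Other RGC genes were measured beside this result. Thy1 had 0.411, 0.175 and 0.811 RPM in WT non-RGCs and 6.78, 8.07 and 9.24 in mKO non-RGCs. Pou4f1, a transcription factor of RGCs, had 4.36, 3.85 and 11.7 against 20.7, 16.8 and 20.4. Of 12 RGC markers, 5 were higher in mKO non-RGCs and 0 lower (7 and 1 at an unadjusted p under 0.05). Among all genes 4.18% were higher and 6.43% lower. The marker in the opposite direction was the neuronal tubulin Tubb3, at -0.53 ± 0.18 (limma adjusted p = 0.0792), and Islr2 was at -0.24. Leaving out WT non-RGC library A or B or any mKO non-RGC library left 2 or 3 of the 12 higher, as did removing the trends with GC content and coverage, which left 3. Without mKO non-RGC library C 1 marker was lower, and without WT non-RGC library C 7 were higher. The summed level of the 12 was 576 to 703 RPM in WT and 645 to 759.8 in mKO, so that the sums overlapped. The 5 blood markers summed to 11.7 to 19.2 in WT and 56.9 to 85.9 in mKO non-RGCs, and all 5 were higher. The part of RGCs or blood cells left in the fraction in the members' rise was not tested.

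The calls in non-RGCs rested on single libraries more than those in RGCs. Leaving out mKO non-RGC library B left 1 of the 6 genes past the threshold, Sncg, where 0.307% of all genes were higher. Leaving out WT non-RGC library B left 2, beside 1.06% of all genes, and leaving out mKO non-RGC library A left 3, beside 1.85%. The rise of Sncg passed under every processing tried, and the log2 differences of Nefl, Nefm, Nefh, Rbpms and Slc17a6 stayed above 0 in each.

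Whether the genotype difference itself differed between the fractions was tested as an interaction over the 12 libraries. It was lower in RGCs for 3 members, beside 0.097% (16 genes) of the 16502 genes tested, and higher for 0 members and 0% of all genes (971 genes, none of them a member, at an unadjusted p under 0.05, and also 0 with limma-voom). For Sncg the genotype difference in RGCs minus that in non-RGCs was -2.21 ± 0.21 on the log2 scale (SE, limma adjusted p = 0.00084). For Nefl it was -1.48 ± 0.16 (limma adjusted p = 0.00194) and for Nefm -1.05 ± 0.16 (limma adjusted p = 0.0265). Gap43 (-0.85), Rbpms (-1.34) and Slc17a6 (-1.34) had limma adjusted p-values of 0.0815, 0.0798 and 0.0899. Nefh was at -1.17 ± 0.38, Stmn2 at -0.68 ± 0.18, Ina at -0.52 ± 0.16 and Prph at -0.07 ± 0.70, with limma adjusted p-values of 0.506, 0.413, 0.506 and 0.974. By an unadjusted p under 0.05, 9 of the 10 genes had a lower difference in RGCs. The result was not particular to the members. Of 12 RGC markers, 5 also passed in limma with a lower difference in RGCs, among them Thy1 (-4.60) and Pou4f2 (-2.16), and 0 with a higher one. At an unadjusted p under 0.05, 9 of these 12 markers were lower. Without mKO non-RGC library A the count rose from 3 to 7, while among all genes 35 (0.212%) were lower and 113 (0.685%) higher in place of 16 and 0. Leaving out any mKO RGC library, mKO non-RGC library B, or WT libraries A or B of RGCs or A of non-RGCs lost Nefm.

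The make-up of the filament transcripts was then compared between the fractions, as the share of each gene in the summed reads per kilobase of the 5 filament genes of a library. These shares do not depend on scaling between libraries, but they rest on the length taken for each gene, here all annotated exons. Ina took 42.0% ± 1.85 in RGCs and 61.2% ± 7.59 in non-RGCs (SD, n = 6 libraries each, exact two-sided permutation p = 0.00216, adjusted p = 0.00361 over 5 genes). That p is the smallest 6 libraries against 6 can give. The 6 libraries of a fraction join WT and mKO, so the SD also holds the genotype difference. Labels were permuted across genotypes, and no pairing of fractions was used. Within non-RGCs, Ina took 68.0% ± 1.15 in WT and 54.4% ± 1.84 in mKO (SD, n = 3). Nefl took 28.7% ± 0.580 and 15.2% ± 4.497, and Nefm 23.7% ± 0.403 and 18.5% ± 2.26, each with the same exact permutation p. Nefh took 4.61% ± 0.986 and 3.51% ± 1.40 (exact permutation p = 0.145, n = 6). Without mKO non-RGC library A the difference for Nefh was 1.56 percentage points and passed (exact permutation adjusted p = 0.0325). Prph took 0.902% ± 0.565 and 1.57% ± 0.346 (exact permutation adjusted p = 0.0352, n = 6). Leaving out library A or C of WT RGCs or of WT non-RGCs, or B or C of mKO RGCs, lost that call, with exact permutation adjusted p-values of 0.0563 to 0.0703.

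With all annotated exons as the length, the order of the group means was the same in both genotypes within a fraction. The order of Nefl and Nefm in RGCs rests on this length. With the longest transcript, Nefm was at 102 RPKM in WT RGCs and Nefl at 77.5. In WT the mean share of Ina in RGCs minus that in non-RGCs was -24.7 percentage points, and in mKO -13.7 points, with 3 libraries against 3, where an exact permutation test cannot go below 0.1. The share of Nefl was 28.2% ± 0.0611 in WT RGCs and 29.3% ± 0.0991 in mKO RGCs, against 11.2% ± 0.518 in WT non-RGCs and 19.3% ± 1.19 in mKO non-RGCs. The mKO shares of Nefl lay above the WT shares in both fractions, and the change in the non-RGCs was not tested against that in the RGCs. The shares were not corrected for GC content, which is 48.85% for Nefl and 55.5% to 60.8% for the other filament genes. With the GC trend removed, log2 differences between mKO and WT in RGCs were -0.40 for Nefl, -0.24 for Ina and -0.04 for Nefm. In non-RGCs they were 1.11, 0.21 and 0.93. The part of GC content in the shares was not tested.

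**Figure D5:**
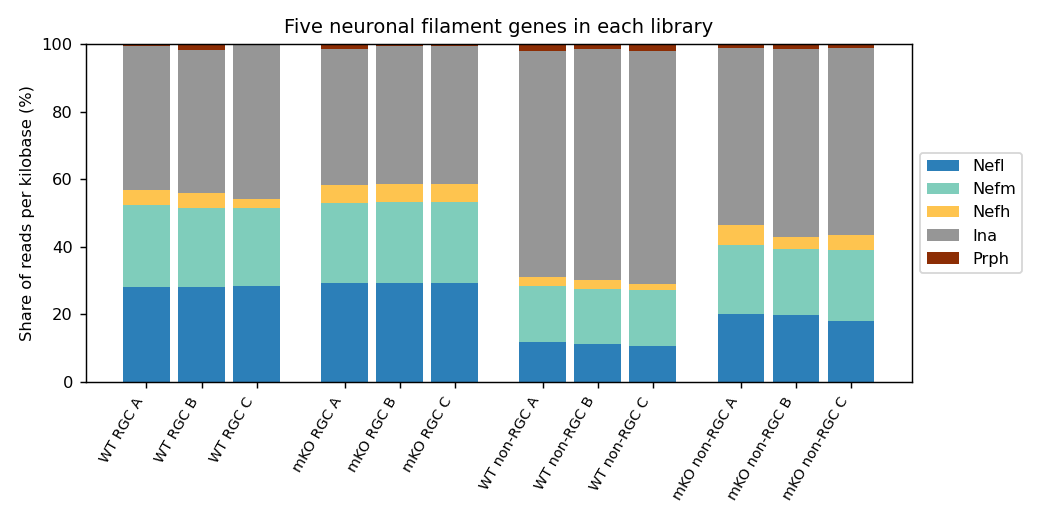
Share (%) of each of the 5 filament genes in their summed reads per kilobase in each of the 12 libraries, stacked to 100. Ina (grey) takes 40.3% to 45.4% in RGC libraries, 52.3% to 55.7% in mKO non-RGCs and 66.8% to 69.0% in WT non-RGCs, and Nefl (blue) is smallest in WT non-RGCs.

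Other genes of axon growth and of the filament network were set beside the members. Of 22 genes of axon growth, 15 were lower in mKO RGCs, beside 21.2% of all genes, and 0 higher. Their median log2 difference was -0.39, and that of all genes -0.0024. With the GC trend removed 10 of the 22 were lower, and with both trends removed 2, at a median of -0.061. They include Stmn3 (-0.75), a relative of Stmn2, Marcksl1 (-0.70), an actin-binding relative of Marcks, and Crmp1 (-0.61) and Dpysl3 (-0.59), which mediate signals to the growth cone cytoskeleton. In non-RGCs 2 of the 22 were higher, Nrn1 (2.27) and Klf7 (0.81), and 2 lower, Ncam1 (-0.49) and Dpysl5 (-0.41). All genes were 4.18% higher and 6.43% lower there, and the median of the 22 was -0.14. Removing the GC trend, or leaving out mKO non-RGC library B, left 0 higher, and leaving out WT non-RGC library B left 1. Leaving out any WT non-RGC library, or mKO library A or B, lost both lower genes, as did removing the GC trend or both trends. Leaving out mKO library C raised the lower genes to 7 and the higher genes to 3. Between fractions 16 of the 22 were higher in WT RGCs, beside 26.4% of all genes, and 0 lower, led by Nrn1, at 6.74, and Chl1, a cell adhesion molecule of the L1 family, at 5.40. In the interaction 0 of the 22 passed in limma, 4 were lower in RGCs at an unadjusted p under 0.05, and the adjusted p of Nrn1 was 0.0871.

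Of 12 other intermediate filament and linker genes, 4 were lower in mKO RGCs and 0 higher, with a median log2 difference of -0.17. That is 33.3% of the list, near the 21.2% of all genes, and with either the GC trend or both trends removed 1 of the 12 was lower. The 4 genes were vimentin (Vim, -0.63), the filament of glia and progenitors, and the nuclear lamins Lmnb1 (-0.55), Lmna (-0.44) and Lmnb2 (-0.31). In non-RGCs 0 of the 12 passed in limma, and 4 were lower at an unadjusted p under 0.05. Plectin (Plec) at -0.17 and dystonin (Dst) at 0.29, which tie filaments to other structures, did not pass in RGCs.

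Of 7 paralogues of the members, 6 were lower in mKO RGCs, beside 21.2% of all genes. Sncb (-0.93) and Slc17a7 (-0.77), the paralogues of Sncg and Slc17a6, were ahead of Stmn3 (-0.75) and Rbpms2 (-0.63). Stmn1, Stmn3 and Stmn4 are also in the axon growth list, and Rbpms2 is also an RGC marker. The counts of these lists are therefore not separate observations. With the GC trend removed 2 of the 7 were lower, and with both trends removed 1. In non-RGCs, of 6 that passed the filter, Sncb fell by 0.99 ± 0.21 (limma adjusted p = 0.0214). Rbpms2 had an interaction past the threshold, at -1.23 (adjusted p = 0.0103). In mKO RGCs 8 of 12 RGC markers were lower and 0 higher (1 at an unadjusted p under 0.05), among them Thy1 (-0.73), Tubb3 (-0.68), Islr2 (-0.66) and Pou4f1 (-0.63). With the GC trend removed 7 of the 12 were lower, and with both trends removed 1. Of 8 photoreceptor markers 4, of 7 amacrine markers 4 and of 10 progenitor markers 4 were also lower in mKO RGCs, beside 21.2% of all genes. Of each, 0 were higher (1 photoreceptor marker at an unadjusted p under 0.05). With the GC trend removed 3, 3 and 1 were lower, and with both trends removed 1, 3 and 0, beside 9.65% and 5.54% of all genes. Without WT RGC library C, 4, 4 and 6 were lower and 1, 1 and 2 higher, beside 27.7% and 23.2% of all genes.

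Over the 12 libraries, the 5 genes closest to the members' mean profile among 12780 genes averaging 50 or more were Tes, Tmem141, Emc9, Cystm1 and BC030500. Their Euclidean distances in centred log2 values were 0.569, 0.665, 0.702, 0.708 and 0.728, against 0.573 for Nefl and 0.762 for Nefm, which were part of the mean, and a median of 4.42 over all of these genes. Slc17a6 at 4.52 and Ina at 2.49 were farthest from the mean of the members measured here apart from Prph, which was under the mean of 50.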

How the data were processed

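Poly-A RNA of P0 mouse retina was sequenced from a single end, with 3 libraries for each of mKO RGCs, WT RGCs, mKO non-RGCs and WT non-RGCs. The authors aligned reads to mm10 with STAR 2.3.1z4, counted reads on genes with featureCounts, and used DESeq for normalization, whose name is also in the names of the deposited tables with marks for primary alignments and removal of duplicates. Per gene, the deposited signal is the count over the library's size factor, averaged by the authors over the 3 libraries of a group, 1 table for each fraction. Further columns hold the authors' own fold changes, p-values and adjusted p-values and were not used. Columns of per-sample values left unused numbered 0.

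Since a mean adds up whole reads of 3 libraries, each weighted by its library, the reads of each library were recovered from the digits of the means, for 100% of genes with reads in every group. With shifted steps as a control, 0 of 1012 to 1136 genes per group had a solution. Recovered libraries carry no replicate number. The design had assumed values per library, and limma was used on the recovered values as set out there. As an alternative, limma-voom was run on the recovered whole reads, and no other count model was fitted. Pairs of libraries of a group differed by more than sampling noise, with mean chi-square values of 3.59 to 26.8 per gene, so each counted as 1 sample. Depth was 7139633 to 13014004 reads on genes, and PCR copies are not independent molecules.

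limma 3.58.1 (R 4.3.3) with a mean-variance trend was run on log2(value + 1) for genes averaging 10 or more in a group, with Benjamini-Hochberg adjustment over all genes tested and calls at an adjusted p under 0.05. Fold changes on this scale understate those of low genes. Each table was fitted alone for genotype. For fractions and the interaction, whole reads of all 12 libraries were scaled together by the median of ratios. On simulated data of these comparisons limma recovered 198 of 200 changed genes with 16 false calls in RGCs. It recovered 199 with 10 in non-RGCs and 183 with 10 for the interaction. The median absolute log2 difference was 1.02 in RGCs, 0.993 in non-RGCs and 1.01 for the interaction. Recovery of smaller differences, such as those of the members in RGCs, was not tested. The number of false calls in data with a GC trend or a library that stands apart was not tested. As alternatives, the GC trend of each library (lowess, span 0.3) or its joint trend with GC and coverage (the median of the 300 nearest genes) was removed. Exon lengths, GC content and positions are from GENCODE M21, which held 91.9% of gene names. Python 3.11.15, numpy 2.4.6, pandas 2.3.3, scipy 1.17.1 and statsmodels 0.14.6 were used.

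The members and gene lists were chosen with earlier results of these data known. All 10 members are named, as are at most 4 of the largest called differences of a list, the 5 genes most like the members, and Ezh2 and Thy1 as checks of the labels. Pou4f1, Plec and Dst, and the values of Tubb3 and Islr2 in non-RGCs, were chosen after seeing their values. Lists were axon growth, other intermediate filaments and linkers, paralogues, and markers of RGCs, photoreceptors, amacrine, horizontal, progenitor, astrocyte and Mueller, endothelial and pericyte, microglia, blood, lens and kidney cells. Of the paralogues, 1 gene is not reported here and was left out of the counts.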

Additional observations from a re-analysis of the deposited data

Results flagged for a closer look

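The genotype difference differed between RGCs and non-RGCs for 3 of the 10 genes by the interaction term of limma over 12 libraries. Of the 16502 genes tested, 0.097% passed with a lower difference in RGCs and 0% with a higher one. For Sncg the log2 difference between mKO and WT in RGCs minus that in non-RGCs was -2.21 (SE 0.21, adjusted p = 0.00084), and it lay between -2.37 and -2.03 under the alternatives, past the threshold in each. For Nefl it was -1.48 (SE 0.16, adjusted p = 0.00194), between -1.56 and -1.35 and past the threshold in each. For Nefm it was -1.05 (SE 0.16, adjusted p = 0.0265), between -1.15 and -0.91, and its call was lost in 8 alternatives.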

How the results depend on the processing

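No paired analysis was possible because the recovered libraries carry no replicate number. With GC and coverage trends removed, the number of members lower in mKO RGCs was 1, beside 5.54% of all genes. With both trends removed, log2 differences that turned were Nefm 0.14, Nefh 0.38 and Prph 0.13 in RGCs, Ina 0.28 and Prph 0.10 in non-RGCs, and Prph 0.064 for the interaction. With the GC trend removed they were Nefh 0.43 and Prph 0.31 in RGCs and Ina 0.21, Prph 0.30 and Stmn2 -0.060 in non-RGCs. Scaled by total reads, they were Nefh 0.11 and Slc17a6 0.033 in RGCs and Ina 0.13 and Prph 0.010 in non-RGCs. The interaction then gave 6 lower members, beside 0.157% of all genes. Scaled by the upper quartile, Nefh was 0.023 in RGCs. Of these, only Nefm had passed the test, and none passed after turning.

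Without single libraries, 7 to 9 members were lower in mKO RGCs, beside 14.3% to 27.7% of all genes. In mKO non-RGCs 1 to 5 were higher, beside 0.307% to 4.76% of all genes. For the interaction 2 to 7 were lower, beside 0.0424% to 0.212% of all genes. Differences that turned ran from -0.28 to 0.13 for Nefh, -0.65 to 0.47 for Prph and -0.26 to 0.0015 for Slc17a6 in RGCs, from -0.13 to 0.11 for Ina and -0.040 to 0.29 for Stmn2 in non-RGCs, and for Prph from -0.098 to 1.06 between WT fractions and -0.52 to 0.64 for the interaction. Share differences between fractions ran from 0.756 to 1.56 percentage points for Nefh and -0.858 to -0.572 for Prph. The count of members higher in RGCs than in non-RGCs stayed at 9 in both genotypes under every alternative. The share of all genes that were higher ran from 16.2% to 28.2% in WT and from 18.8% to 31.1% in mKO. Pseudocounts, filters and limma-voom left every count of members within 1.5 times. The cause was not tested for these changes, beyond the fewer samples when a library is left out. Prph, with few reads, had intervals too wide to show differences of the size seen in other members.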

Other observations

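Marker lists outside the report's comparisons gave these counts. In mKO RGCs, compared to WT, 2 of 5 astrocyte and Mueller markers and 1 of 7 endothelial and pericyte markers were lower. Of the horizontal cell markers, 1 of 4 was higher. Among all genes 21.2% were lower and 16.3% higher. In mKO non-RGCs 5 of 8 photoreceptor markers, 2 of 7 amacrine markers, and 1 each of the progenitor, horizontal and astrocyte and Mueller markers were lower. Among all genes 6.43% were lower there. With the GC trend removed 1 photoreceptor and 0 amacrine markers were lower, beside 0.685% of all genes. With both trends removed 0 of either were, beside 0.927% of all genes. By limma 0 of 5 microglia markers passed in RGCs, where 2 were lower at an unadjusted p under 0.05, and 0 of 4 in non-RGCs, where 0 were at that p. Of the lens markers 0 passed in either fraction, with 0 at an unadjusted p under 0.05. Both kidney markers were lower in mKO in both fractions, with summed levels of 2.68 to 4.63 RPM in WT RGCs and at most 0.161 in mKO RGCs.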
